A study of Homo sapiens with 8 samples.

Results

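The BCL2 family decides whether a cell under stress opens the outer membrane of its mitochondria and dies. Its transcripts were followed here in prostate cancer cells that received miR-29b or a small interfering RNA against TET2. The members were the 10 genes BCL2, BCL2L1, MCL1, BAK1, BAX, PMAIP1, BBC3, BCL2L11, BMF and BID. Every probe set annotated to 1 of these symbols was taken, which gave 1 probe set a gene, 10 of the 33297 probe sets on the array and 10 of the 18417 genes with a name. Each of 2 established prostate cancer lines was transfected with 4 constructs, giving 8 arrays with 1 array in each group. LNCaP is a line that responds to androgen and has wild-type p53, and DU145 is a line that grows without androgen and has mutant p53. 2 constructs were miRNAs, miR-29b and its negative control (nc). The others were siRNAs, 1 directed at TET2 (siTET2) and its control (siControl). RNA was isolated 72 hours later. No group was untransfected, so both controls of a line also carry a transfected RNA, and each target was addressed by 1 construct in the labels.

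Members of this family fall into 3 classes by role. BCL2, BCL2L1 (BCL-XL) and MCL1 hold the membrane closed, BAK1 and BAX form the pores that release cytochrome c, and the BH3-only proteins PMAIP1 (NOXA), BBC3 (PUMA), BCL2L11 (BIM), BMF and BID either block the protective members or activate the pore formers. PMAIP1, BBC3 and BAX are known p53 targets, and PMAIP1 is also known to respond to ATF4 and to foreign RNA. MCL1 is a known target of miR-29b, and in neurons miR-29b is known to repress a set of pro-apoptotic members that includes BCL2L11, BMF, BBC3 and a form of BAK1. DU145 is known for lacking BAX protein because of a frameshift in the gene, which transcript levels do not show.

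The mature miR-29b is shown because its seed, bases 2 to 8 in capitals, is the part that pairs with target transcripts. The other 3p members of the miR-29 family carry the same seed. The sequences are those of RefSeq (GRCh38.p14), 5′ to 3′. The labels name miR-29b without an arm, and the 3p arm is printed as the one usually meant. Seed matches in the members' transcripts were not analysed here.
hsa-miR-29b-3p: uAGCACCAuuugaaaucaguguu
hsa-miR-29a-3p: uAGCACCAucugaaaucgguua
hsa-miR-29c-3p: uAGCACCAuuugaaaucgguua

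TET2 oxidises methylated cytosine, mostly where C is followed by G (CpG), so the CpG content of the members' promoters was counted. The window was the 250 bases before a listed start of each gene. For BCL2 this window lay inside the gene's RefSeq span, and for BBC3 and BID mostly inside it. Counts for these genes therefore include sequence after the gene's outermost start. Among 9 matched members (MCL1 had no entry) the count ran from 4 CpG in BBC3 to 36 in PMAIP1, with a median of 25, against a median of 11 over 27305 promoters of the same length. BAK1 had 5 and lay at percentile 35.03 of all promoters, whereas PMAIP1 lay at percentile 95.3. These 2 promoters are shown because PMAIP1 and BAK1 were the members with the widest differences below. CpG is in capitals, and each sequence is read 5′ to 3′ on the gene's strand (GRCh38.p14). PMAIP1 is on the plus strand at chr18:59899746-59899995, and BAK1 on the minus strand at chr6:33580277-33580526.
PMAIP1: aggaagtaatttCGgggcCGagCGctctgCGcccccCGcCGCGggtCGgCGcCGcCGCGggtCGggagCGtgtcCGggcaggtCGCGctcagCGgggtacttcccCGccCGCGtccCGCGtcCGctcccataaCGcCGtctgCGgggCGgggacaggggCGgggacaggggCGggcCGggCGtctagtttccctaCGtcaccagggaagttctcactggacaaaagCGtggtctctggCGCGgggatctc
BAK1: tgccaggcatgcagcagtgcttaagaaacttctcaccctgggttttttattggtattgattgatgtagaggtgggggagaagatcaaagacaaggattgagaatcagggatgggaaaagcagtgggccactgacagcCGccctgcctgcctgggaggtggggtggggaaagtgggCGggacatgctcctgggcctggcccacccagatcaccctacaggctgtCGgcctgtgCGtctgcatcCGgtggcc

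Several motifs were searched on both strands of the same windows. TGACGT, the core of the cyclic AMP and ATF response element, occurred in 7.42% of all promoters and in 1 member, PMAIP1, starting at position -56 from the gene start. The core of the interferon-stimulated response element occurred in 3.07% of all promoters and in 0 members. The p53 consensus half-site occurred in 5.53% of all promoters and in 1 member, BAK1. A match describes the letters in this window and is no evidence of binding.

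The labels held against the targeted gene and the markers of the lines. TET2 was lower with siTET2 than with siControl in LNCaP (7.89 against 9.01 on the log2 scale) and in DU145 (6.60 against 7.85), and with miR-29b it was -0.64 from nc in LNCaP and -0.18 in DU145. LNCaP markers exceeded the median of their array for 6 of 6 analysed genes in LNCaP and for 2 of 6 in DU145. DU145 markers did so for 9 of 11 genes in DU145 and for 2 or 3 of 11 in LNCaP. Of 9 immune and 9 fibroblast markers, 1 each exceeded it on every array. Array medians over all probe sets ran from 7.10 to 7.17 in LNCaP and from 6.59 to 6.66 in DU145, so levels were compared within a line unless stated. Nothing in the labels says that the arrays came from separate cultures or days.

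**Figure D1:**
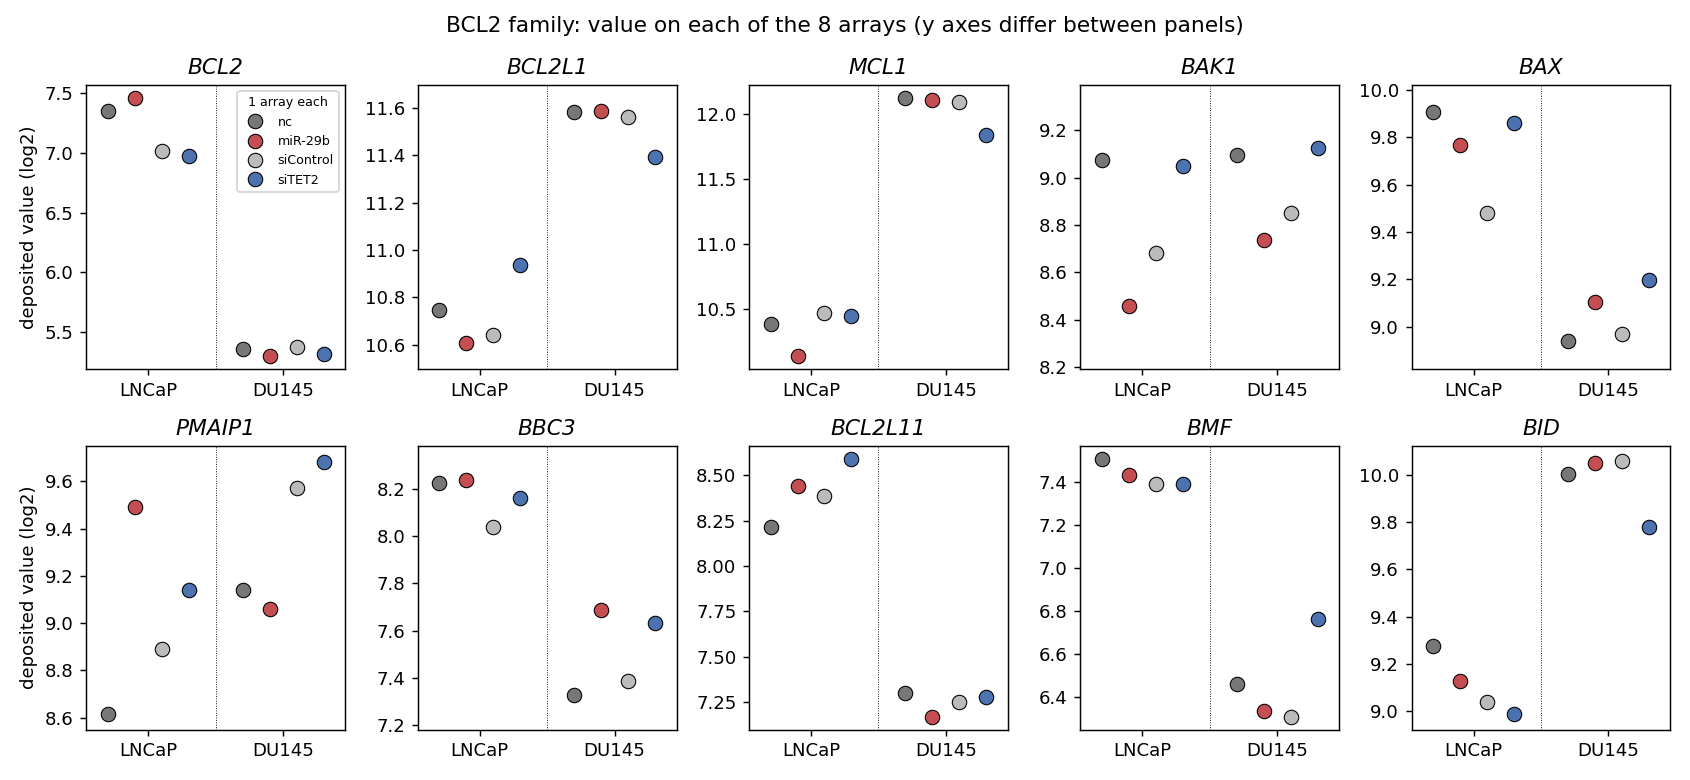
Deposited log2 value (y axis) of each BCL2 family gene on each of the 8 arrays, 1 point an array, with LNCaP left and DU145 right of the dotted line. PMAIP1 stands at 9.49 with miR-29b in LNCaP against 8.62 to 9.14 on the other 3 arrays, and BAK1 is lowest with miR-29b in both lines.

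The 3 protective members had different levels in the lines. In LNCaP, BCL2 was 7.46 with miR-29b, 7.35 with nc, 7.01 with siControl and 6.97 with siTET2, above the array's median on 2 of the 4 arrays. In DU145 it was between 5.30 and 5.38 and below the array's median on all 4, so differences between these DU145 values come from a probe set of low signal. MCL1 was between 10.14 and 10.47 in LNCaP and between 11.84 and 12.12 in DU145, and BCL2L1 between 10.61 and 10.94 and between 11.39 and 11.59. Both were above the median of every array.

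The spread over the 4 arrays of a line was widest for PMAIP1, at 0.87 log2 units in LNCaP and 0.62 in DU145. BAK1 had the next widest spread in LNCaP (0.62) and BMF in DU145 (0.45). BCL2L11 ranged over 0.38 in LNCaP and 0.13 in DU145, and BMF over 0.12 in LNCaP.

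To set the lines side by side, all 8 arrays were quantile-normalized together. Whether the submitters had normalized the lines together is not given in the sources used here, so these values are a description with no test, and the SD runs over 4 arrays that each carry another construct. MCL1 was then 12.1 ± 0.114 in DU145 and 10.3 ± 0.140 in LNCaP (SD, n = 4), a 3.57-fold higher level in DU145. BCL2 was 5.70 ± 0.0619 in DU145 and 6.95 ± 0.243 in LNCaP (SD, n = 4), a 2.39-fold higher level in LNCaP. BCL2L1 was 1.96-fold higher in DU145, as was BID, the BH3-only protein activated by caspase-8 cleavage, by 2.09-fold. In LNCaP, BCL2L11 was 1.74-fold, BAX 1.41-fold, BMF 1.38-fold and BBC3 1.24-fold higher. The levels of these 8 genes did not overlap between the lines, whereas those of BAK1 and PMAIP1 did. All 4 DU145 arrays were above all 4 LNCaP arrays for 29.5% of all named genes and below them for 31.5%, against 3 and 5 of the 10 members. The median absolute difference between the lines was 0.67 log2 units over the members and 0.39 over all named genes.

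**Figure D2:**
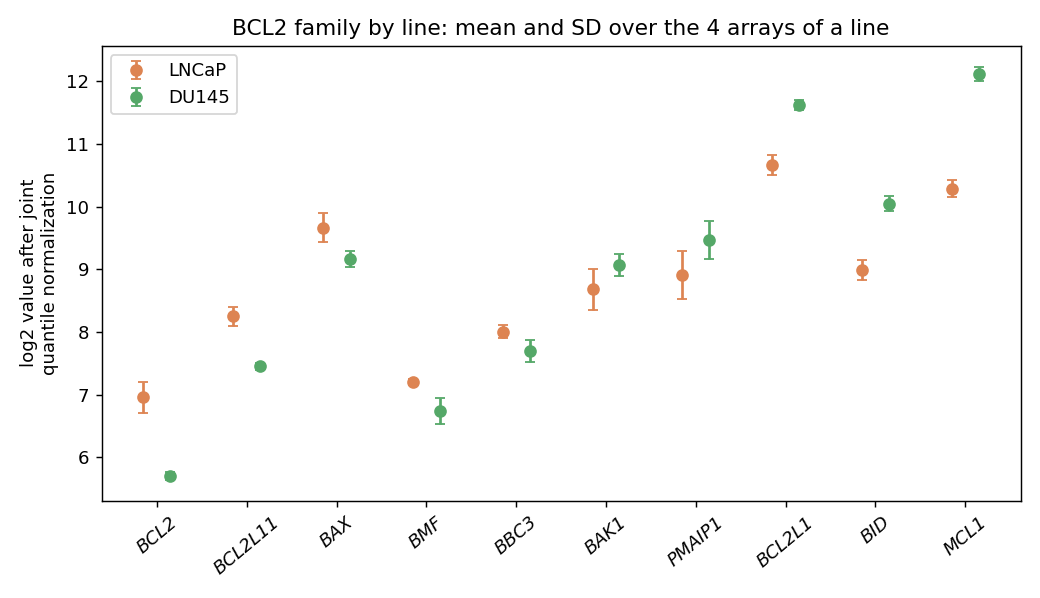
Log2 value after quantile normalization of all 8 arrays together (y axis), by gene, as the mean and SD over the 4 arrays of LNCaP (orange) and DU145 (green). Genes run from BCL2, 2.39-fold higher in LNCaP, to MCL1, 3.57-fold higher in DU145.

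The first question was what followed the knockdown of TET2. With siTET2 both pore-forming members were higher than with siControl in both lines. BAK1 was 9.05 with siTET2 against 8.68 with siControl in LNCaP (0.37), and 9.13 against 8.85 in DU145 (0.28). BAX was 9.86 against 9.48 in LNCaP (0.38) and 9.20 against 8.97 in DU145 (0.23). For BAK1 this depended on the control array. The nc arrays were at 9.07 in LNCaP and 9.10 in DU145, so siTET2 stood at -0.03 from nc in LNCaP, between the controls, and 0.03 above nc in DU145. For BAX, siTET2 was above both controls in DU145, by 0.23, but -0.05 from nc (9.90) in LNCaP.

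The effect common to both lines was tested with limma on all 8 arrays, with terms for cell line and construct and 3 residual degrees of freedom. The lines stand in for replicates, so the residual spread is how far construct differences disagree between them. The fit left out the lower-expressed genes, those with a mean level under 7.53, and covered 9209, and 8 of the 10 members passed this filter, BCL2 and BMF being too low. For siTET2 minus siControl, BAK1 had a common difference of 0.32 (SE 0.0945, limma adjusted p = 0.184). BAX had 0.30 (SE 0.115, limma adjusted p = 0.288). No member passed the adjusted threshold of 0.05 in this fit, where 0.0326% of genes tested were called higher and 0.347% lower. At an unadjusted p below 0.05 stood 2 of the 8 members, against 13.7% of all genes tested. The common difference from nc in place of siControl was 0.0027 for BAK1 and 0.11 for BAX. Without the LNCaP siControl array, BAX stood at 0.17, with a limma adjusted p of 0.911.

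Among the BH3-only members, BMF and BBC3 were higher with siTET2 in DU145. BMF, which senses loss of attachment, was 6.76 with siTET2 against 6.31 (siControl), 6.46 (nc) and 6.34 (miR-29b), a difference of 0.45 from siControl and 0.30 from nc. The siTET2 array was the 1 array of the DU145 set in which BMF lay above the array's median. In LNCaP all 4 BMF values fell between 7.39 and 7.51. BBC3 was 7.63 with siTET2, 7.39 with siControl and 7.33 with nc in DU145, and in LNCaP its 8.16 lay between siControl (8.04) and nc (8.22).

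PMAIP1 kept 1 order of its controls and siTET2 in both lines. It was 8.62 with nc, 8.89 with siControl and 9.14 with siTET2 in LNCaP, and 9.14, 9.57 and 9.68 in DU145. The siTET2 array was therefore above both controls, by 0.25 in LNCaP and 0.11 in DU145, and 0.52 and 0.54 from nc. The common siTET2 minus siControl difference was 0.18 (SE 0.229, limma adjusted p = 0.772). It turned to -0.054 without the LNCaP siControl array, and was 0.038 without the DU145 siTET2, 0.32 without the LNCaP siTET2 and 0.41 without the DU145 siControl array. BCL2L11 was highest with siTET2 in LNCaP (8.59 against 8.39 with siControl and 8.21 with nc), and in DU145 it ranged from 7.17 to 7.30. BID was lowest with siTET2 in both lines. It was 8.99 against 9.04 (siControl) and 9.27 (nc) in LNCaP, and 9.78 against 10.06 and 10.00 in DU145, with a common difference of -0.16 (SE 0.0983, limma adjusted p = 0.509). This was -0.27 without the LNCaP siControl array, -0.063 without the DU145 siControl array and -0.25 against nc.

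The protective members went different ways. In DU145, MCL1 was 11.84 with siTET2 against 12.09 with siControl and 12.12 with nc, and BCL2L1 was 11.39 against 11.56 and 11.58. In LNCaP, MCL1 with siTET2 (10.45) lay between the controls (10.47 and 10.39), and BCL2L1 was above both, at 10.94 against 10.64 and 10.75. All 3 protective members were below both controls in DU145, BCL2 by 0.04 at a low signal. The pore formers BAK1 and BAX were above both there, by 0.03 and 0.23. Of the BH3-only members, BID was below both, by 0.22, BCL2L11 lay between them, and PMAIP1, BBC3 and BMF were above both. Over all named genes, 38.9% lay above both controls and 35.3% below both with siTET2 in DU145, against 5 and 4 of the 10 members, so being outside the controls is common there. By at least 0.3 log2 units, 4.83% of genes lay above and 4.82% below, against 1 member (BMF) and 0. In LNCaP 27.7% of genes lay above both controls and 26.4% below both, against 3 members each, and by at least 0.3 the shares were 1.68% and 2.54%, against 0 members. The same side in both lines was taken by 24% of all genes, and by BCL2 and BID (below) and PMAIP1 (above) among the members. Opposite sides were taken by 16.6% of genes and by 2 members, BCL2L1 and BMF.

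At a threshold of 1.5-fold from siControl, 0 members were higher or lower with siTET2 in either line. That size was reached upward by 0.521% and downward by 1.5% of all genes in LNCaP, and by 0.939% and 1.23% in DU145. Above siControl by any amount stood 6 members in each line, against 58.8% of all genes in LNCaP and 51.5% in DU145. The median over the 10 members was 0.16 in LNCaP against 0.04 over all genes, and 0.07 in DU145 against 0.0071. With nc as the control the family's medians were -0.04 in LNCaP and 0.0033 in DU145.

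**Figure D3:**
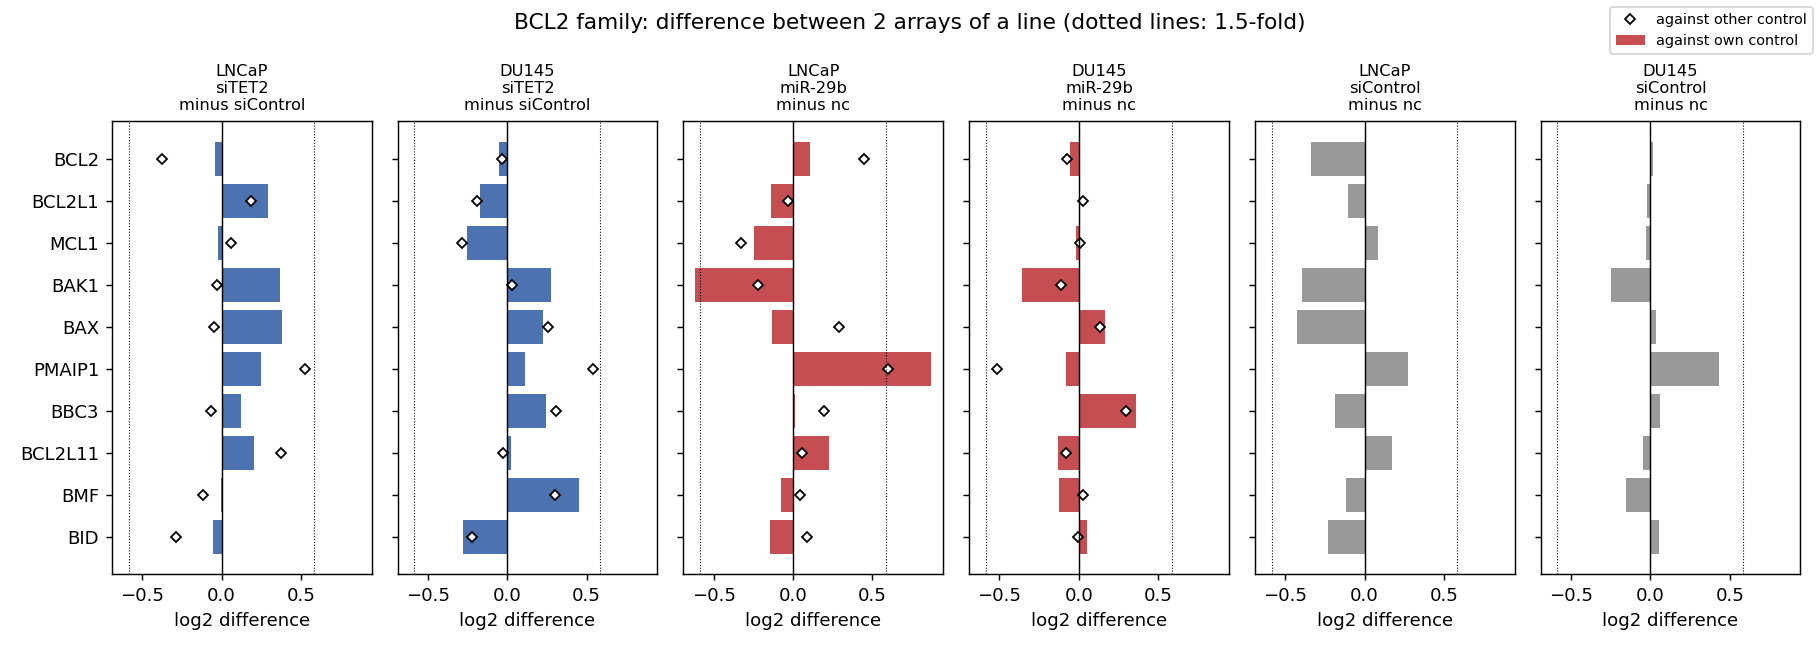
Log2 difference (x axis) between 2 arrays of a line for each of the 10 genes: siTET2 minus siControl (blue), miR-29b minus nc (red) and siControl minus nc (grey), with diamonds for the same treated array against the line's other control. PMAIP1 (0.87) and BAK1 (-0.62) with miR-29b in LNCaP are the bars past the dotted 1.5-fold lines.

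With miR-29b in LNCaP, the NOXA gene PMAIP1 was the member that differed most. It was 9.49 with miR-29b against 8.62 with nc, a 1.83-fold difference (0.87), and 0.60 above siControl. This size lay at percentile 99.8 of the absolute differences of all named genes in that contrast. Between the LNCaP control arrays PMAIP1 differed by 0.28. PMAIP1 was the 1 member at least 1.5-fold higher, against 0.673% of all genes, and the 1 member above both controls by at least 0.3, against 1.28%.

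In DU145 the same gene was lowest with miR-29b, at 9.06 against 9.14 with nc and 9.57 with siControl, so that it stood at -0.08 from nc and -0.51 from siControl. Over both lines the common difference was 0.40 (SE 0.229, limma adjusted p = 0.995), and it became -0.11 without the LNCaP miR-29b array and 0.90 without the DU145 one. The difference between the lines, tested in limma with a construct-by-line term chosen after seeing the data, was -0.95 (SE 0.341, limma adjusted p = 0.9998). That test leaves 2 residual degrees of freedom, which come from the remaining construct differences between the lines, so its p-value is not set against replicate arrays. It called 0 of 9209 genes for this contrast, with 304 at an unadjusted p below 0.05.

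Interferon and stress genes differed beside PMAIP1 on some arrays. IFIT1 and IFIT2, interferon-stimulated genes picked after their values were seen, stood, with miR-29b, at 1.92 and 2.62 from nc in LNCaP and at -0.24 and -0.23 in DU145. Between the DU145 controls, where PMAIP1 was 0.43 higher with siControl, IFIT1 was 1.08 and IFIT2 1.31 higher, and the stress factors DDIT3, JUN and ATF3 were 0.91, 0.78 and 0.49 higher. Elsewhere only some of them went with it. Between the LNCaP controls, where PMAIP1 was 0.28 higher with siControl, IFIT1 was 0.04, IFIT2 0.20 and DDIT3 0.0043 higher. ATF3 was 0.03 higher there and JUN stood at -0.12. With siTET2 in DU145, where PMAIP1 was 0.11 above siControl, IFIT1 stood at -0.26 and IFIT2 at -0.11 from it. On that array DDIT3, ATF3 and JUN were 0.81, 0.79 and 0.64 above siControl. On the LNCaP siTET2 array, where PMAIP1 was 0.25 above siControl, IFIT1, IFIT2 and JUN were 0.20, 0.39 and 0.40 above it. ATF3 stood at -0.35 and DDIT3 at -0.01 there. From nc, DDIT3, JUN and ATF3 stood at 0.29, 0.07 and -0.13 with miR-29b in LNCaP, and at -0.05, 0.03 and 0.11 in DU145. Their part in the PMAIP1 values was not tested.

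BAK1 was the member lowest with miR-29b in both lines. In LNCaP it was 8.46 with miR-29b, 8.68 with siControl, 9.05 with siTET2 and 9.07 with nc, and the difference from nc was 1.53-fold (-0.62). In DU145 it was 8.74, 8.85, 9.13 and 9.10 in that order of constructs, or -0.36 from nc. The order of miR-29b below siControl, and siControl below nc, was the same in both lines. BAK1 was the 1 member at least 1.5-fold lower in LNCaP, against 0.386% of all genes, and 0 members were so in DU145, against 0.19%. Nor was any of the 10 members at least 1.5-fold higher in DU145, where 0.559% of genes were.

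The common miR-29b minus nc difference of BAK1 was -0.49 (SE 0.0945, limma adjusted p = 0.995). The fit called 0% of genes for this contrast, with 344 of 9209, or 3.74%, at an unadjusted p below 0.05, among them 1 of the 8 members tested. For BAK1 the controls themselves were apart, siControl standing at -0.39 from nc in LNCaP and at -0.25 in DU145, a common difference of -0.32 (SE 0.0945, limma adjusted p = 0.354). Against siControl the miR-29b arrays stood at -0.22 in LNCaP and -0.11 in DU145, and the common difference was -0.17 (limma adjusted p = 0.739). BAK1 was therefore below both controls with miR-29b in each line, by less than the controls differed from each other.

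MCL1, the known miR-29b target, was lowest with miR-29b in LNCaP, at 10.14 against 10.39 with nc and 10.47 with siControl. In DU145 its 12.10 lay between nc (12.12) and siControl (12.09). The common difference was -0.13 (SE 0.129, limma adjusted p = 0.995), with a confidence interval before adjustment from -0.43 to 0.16. It was 0.058 without the LNCaP miR-29b array and -0.32 without the DU145 one, so its direction rests on a single array. BCL2L1 was -0.14 from nc in LNCaP and 0.0032 in DU145. BCL2 was 0.11 above nc and 0.45 above siControl in LNCaP, and -0.06 from nc in DU145.

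The BH3-only members that miR-29b is known to repress in neurons were not lower together. BBC3 was 0.36 above nc in DU145 (7.69 against 7.33) and 0.01 above it in LNCaP. BCL2L11 was 8.44 against 8.21 in LNCaP (0.23) and 7.17 against 7.30 in DU145 (-0.13). BMF was -0.07 from nc in LNCaP and -0.12 in DU145, in each line between the controls. BID stood at -0.14 and 0.05, and BAX at -0.14 and 0.16. Of the 10 members 4 were above nc in LNCaP, where 45.3% of all genes were, and 4 in DU145, where 49% were. The family's median was -0.10 in LNCaP against -0.02 over all genes, and -0.04 in DU145 against -0.0032. Against siControl it was 0.07 and 0.0027.

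Read against both controls, miR-29b was above both for 4 members and below both for 3 in LNCaP, against 28% and 22.2% of all genes. In DU145 it was above both for 3 members and below both for 4, against 33.1% and 31.2%. By at least 0.3, 0 members were below both in LNCaP (1.29% of genes), and 0 were above or below both in DU145 (3.11% and 1.18%). BAK1 (below) and BBC3 (above) kept 1 side in both lines, as did 16.9% of all genes. BCL2, BCL2L1, PMAIP1 and BCL2L11 took opposite sides, as did 14.9%.

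The 2 control arrays of a line carry different transfected RNAs, a control siRNA and a control miRNA, and are not replicates. Their differences hold array variation and any response to these RNAs, which cannot be told apart. In LNCaP the median absolute difference of the 10 members (siControl minus nc) was 0.21, against 0.18 over all genes, and BAX (-0.43), BAK1 (-0.39) and BCL2 (-0.34) differed most. In DU145 it was 0.05 against 0.12 over all genes, and PMAIP1 (0.43) and BAK1 (-0.25) differed most, followed by BMF (-0.15). Above nc stood 3 members in LNCaP, against 39.9% of all genes, and 5 in DU145, against 50.3%. At least 1.5-fold stood 0 members in either control pair, against 1.56% of genes higher and 2.39% lower in LNCaP and 0.489% and 0.195% in DU145. The limma fit of this contrast called 0 members and 0 genes, with 13.2% of genes and 1 member, BAK1, at an unadjusted p below 0.05.

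The rest of the pathway was read from lists of known components. Of 13 other BCL2 family genes, 8 were tested with limma, and 0 rose or fell in any of the 3 contrasts. Of all genes tested, 0.0326% were called higher and 0.347% lower with siTET2. With miR-29b and between the controls the share was 0%. A count of 0 in a list of this length is therefore near the share of all genes and is no result about the list. The BH3-only gene HRK was 0.49 above nc with miR-29b in DU145 and -0.27 from it in LNCaP. Against siControl HRK stood at 0.38 in DU145 and 0.00082 in LNCaP. With miR-29b in LNCaP, BECN1, an autophagy protein that binds BCL2, was 0.49 above nc but 0.14 above siControl. Of 15 genes of the apoptosome, caspases and their inhibitors, 13 were tested and 0 rose or fell, again near those shares. CASP9, the caspase of the apoptosome, stood, with miR-29b, at -0.38 from nc in LNCaP and -0.32 in DU145, where the DU145 controls differed by -0.30. BIRC5 (survivin), an inhibitor made in dividing cells, was -0.52 from siControl with siTET2 in LNCaP, and APAF1, the scaffold of the apoptosome, 0.39 above it in DU145.

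Upstream of BID, 11 genes of the death receptor arm were measured and 8 tested. Of these 0 rose or fell, near the shares of all genes given above. TNFRSF10B, a receptor of the ligand TRAIL, was 11.63 with siTET2 against 10.94 with siControl in DU145 (0.69) and 10.97 against 10.69 in LNCaP (0.28), with a common difference of 0.49 (SE 0.138, limma adjusted p = 0.179). FAS was 0.41 and 0.28 above siControl in the same arrays (common 0.35, SE 0.118, limma adjusted p = 0.236). With miR-29b in LNCaP, TNFSF10, the gene of TRAIL itself, was 0.60 above nc and 0.38 above siControl, and in DU145 it was -0.35 from nc at a low level (4.93 against 5.28). TNFSF10 was below the level floor and was not tested.

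Of 8 genes that control MCL1 turnover, 7 were tested and 0 rose or fell, near the shares of all genes given above. FBXW7, which marks MCL1 for degradation, was below the level floor and was not tested. With siTET2 it was 0.39 above siControl in LNCaP and 0.27 in DU145, and 0.62 and 0.43 above nc. USP13, which removes such marks, was tested and stood at -0.30 and -0.26 from siControl, and at -0.13 and -0.37 from nc. Of 12 transcription factors that act on BH3-only genes, 8 were tested and 0 rose or fell, again near those shares. ATF3 and IRF1 were below the level floor and were not tested. With siTET2 in DU145, DDIT3 was 0.81, ATF3 0.79, IRF1 0.66 and JUN 0.64 above siControl. There 4 of 12 were at least 1.5-fold higher, against 0.939% of all genes, and 10 of 12 above 0, against 51.5%. In LNCaP these counts were 0 and 7 of 12, against 0.521% and 58.8%. JUN was 0.40 above siControl in LNCaP, and E2F1 stood at -0.39 and ATF3 at -0.35 from it. Some of these genes also stood far apart between the DU145 controls, as given above.

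Targets of p53 outside the family had the median farthest from 0 of the 7 lists with siTET2. The median of 13 genes was 0.39 above siControl in LNCaP, against 0.04 over all genes, with 12 of 13 above 0, as were 58.8% of all genes. Against nc the LNCaP median was 0.26, with 11 of 13 above 0. In DU145 it was 0.18 against 0.0071, with 8 of 13 above 0, as were 51.5% of all genes. Of 11 tested with limma, 1 rose, TP53INP1, which promotes cell death downstream of p53, with a common difference of 0.62 (SE 0.0920, limma adjusted p = 0.0353), and 0 fell, where 0.0326% of all genes tested were called higher. This call rests on single arrays: with the LNCaP siControl, the DU145 siControl or the DU145 siTET2 array left out, limma called 0 genes. Against nc, TP53INP1 stood at 0.34 in LNCaP and 0.42 in DU145. CDKN1A, the inhibitor of cyclin-dependent kinases, had 0.58 (SE 0.100, limma adjusted p = 0.0605). The family's own p53 targets BAX, BBC3 and PMAIP1 had common siTET2 differences of 0.30, 0.18 and 0.18, and none passed the test. Leaving out the LNCaP siControl array gave 0.17 for BAX and turned PMAIP1 to -0.054, and leaving out the DU145 siTET2 array gave 0.097 for BBC3. With miR-29b, TP53INP1 was -0.43 from nc in LNCaP and -0.57 in DU145, and ZMAT3 was 0.77 above nc in LNCaP. Against siControl these values were -0.24, -0.27 and 0.34, and the LNCaP controls differed by 0.43 in ZMAT3.

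**Figure D4:**
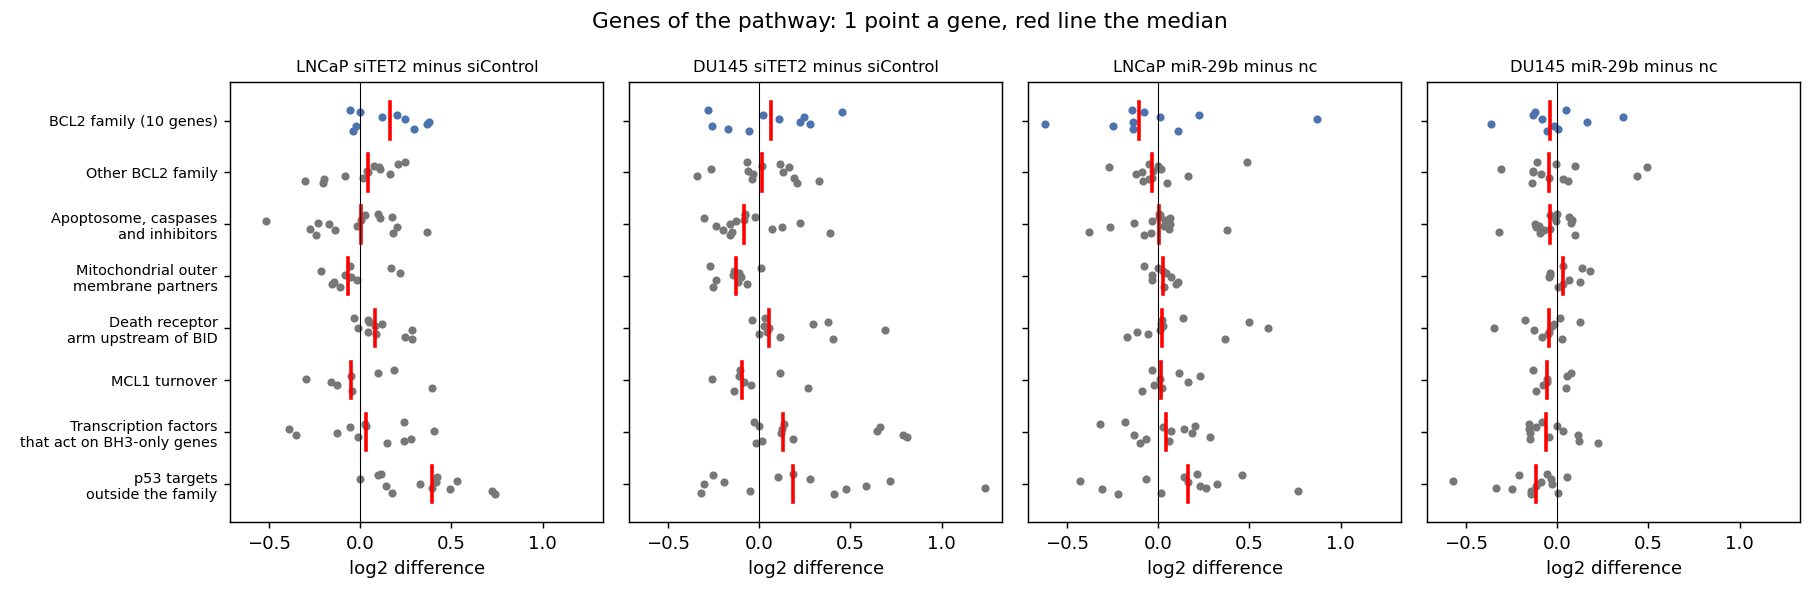
Log2 difference (x axis) of each gene in the BCL2 family and in 7 lists of pathway genes (rows), for the 4 treatment contrasts, 1 point a gene and a red line at the list's median. The p53 targets outside the family have the median farthest from 0 with siTET2 in both lines, at 0.39 in LNCaP and 0.18 in DU145.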

How the data were processed

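The authors deposited 1 table of log2 values for 33297 probe sets on 8 arrays, made with Affymetrix Expression Console and RMA per the submitters' processing notes. RMA corrects background, normalizes by quantiles and summarises probes. The log2 scale is read from the values and from RMA's usual output. Array data carry no read depth, and 1 array in each group limits the precision. Probe sets with 1 symbol in the platform annotation (19460) were named, and the probe set of highest mean stood for a gene.

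Differences are between 2 arrays of a line and have no p-value. Common effects were tested with limma 3.58.1 in R 4.3.3 (lmFit, eBayes, Benjamini-Hochberg over 9209 genes), with the cell line as the block that pairs the arrays, and the fit was tested on simulated data. A p-value here reflects only how far these arrays vary, and that variation may be technical. Python with pandas and matplotlib did the rest.

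Members and lists were chosen with earlier results of these data known. The text names all members, TET2, and up to 3 genes of a list with the largest absolute difference in a contrast, and for each member the genes of highest r. Alternatives changed the control array, level floor, normalization, probe set rule, variance model, cell line term and arrays used. Some markers of the lines were not analysed here.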

Additional observations from a re-analysis of the deposited data

Results flagged for a closer look

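In 6 cases a treated array lay above both controls of 1 line and below both controls of the other. Opposite sides were seen for 14.9% of all named genes with miR-29b, against 4 of 10 members, and for 16.6% with siTET2, against 2 of 10. With miR-29b minus nc, PMAIP1 was 0.87 in LNCaP and -0.081 in DU145, and the difference between the lines had a limma adjusted p of 0.9998. BCL2L11 was 0.23 in LNCaP and -0.13 in DU145 (difference -0.36, SE 0.206, limma adjusted p = 0.9998), and BCL2L1 was -0.14 and 0.0032 (0.14, SE 0.270, limma adjusted p = 0.9998). BCL2 was 0.11 in LNCaP and -0.056 in DU145, a difference that was not tested because the gene was below the level floor. With siTET2 minus siControl, BCL2L1 was 0.29 in LNCaP and -0.17 in DU145 (difference -0.46, SE 0.215, limma adjusted p = 0.972). BMF was -0.0018 in LNCaP and 0.45 in DU145, and that difference was not tested for the same reason.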

How the results depend on the processing

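Under every alternative run in limma, the number of members called stayed at 0 for each of the 3 contrasts. For miR-29b minus nc and siControl minus nc, 0 genes of any kind were called under every setting. A count of 0 members there says nothing about the family. The same holds where siTET2 called 0 genes. BAK1 fell below the stricter level floor, which was 1 of these settings. The lowest adjusted p of any member over these settings was 0.171 (siTET2), 0.280 (miR-29b) and 0.240 (siControl minus nc). Without the cell line term, that is with no replicate block, 0 members were called as well, and the siTET2 difference of BAK1, 0.32 by construction in this balanced design, had a limma adjusted p of 0.9999. For siTET2 the number of all genes called was 35, against 0 without the cell line term, 1 with no level floor, 18 against nc, 27 after joint normalization, 87 with the stricter floor, 113 with a trend, and 0 to 136 when 1 array was left out. The common miR-29b difference of PMAIP1 became -0.11 without the LNCaP miR-29b array and 0.90 without the DU145 one, and that of MCL1 ran from -0.32 to 0.058 when 1 array was left out. For siTET2, PMAIP1 ran from -0.054 to 0.41, BBC3 from 0.097 to 0.27 and BID from -0.27 to -0.063. The family's siTET2 median in DU145 moved from 0.07 to 0.0033 against nc. The other 69 settings of the family's medians and counts stayed within the family's own spread between the controls or kept a count of 0. Some turned sign. For part of them no other outcome was possible. The counts for miR-29b minus nc and siControl minus nc were 0 because 0 genes were called. Taking the mean over all probe sets changed nothing, as each member had 1 probe set. The LNCaP siTET2 median went from 0.16 to -0.04 against nc. It counted as stable because the spread in that line was 0.21. Against the other control the medians were -0.04 (LNCaP siTET2), 0.07 (LNCaP miR-29b) and 0.0027 (DU145 miR-29b), against the mean of both controls 0.03 (LNCaP miR-29b), and with a level floor 0.0032 (DU145 miR-29b) and 0.03 (DU145 siControl minus nc). The number of arrays, 1 in each group, limits all within-line values.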

Other observations

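Each member was set against 9201 other named genes above the level floor by Pearson's r over the 8 arrays, after centring each gene on the mean of its line. The r values are the highest of a long list over few arrays and are a description, with no p. PMAIP1 was most like PARP8 (0.985) and OPTN (0.983), and BAK1 most like DIABLO (0.979), which frees caspases from their inhibitors, and KDM5C (0.974). BAX was nearest to SLC25A42 (0.981), MCL1 to FECH (0.974), BCL2 to ZFP36L2 (0.983) and BID to FZD1 (0.990). BCL2L1 was nearest to RPL27 (0.949), BBC3 to KRTAP10-1 (0.983), BCL2L11 to GTF2H5 (0.986) and BMF to DENND11 (0.989). Among 10 partners of the family on the mitochondrial outer membrane and in its fission and fusion, 0 rose or fell in limma. Of all genes tested, 0.0326% were called higher and 0.347% lower with siTET2, and 0% in the other contrasts. With siTET2, 2 of 10 were above siControl in LNCaP and 1 of 10 in DU145, against 58.8% and 51.5% of all genes, with medians of -0.07 and -0.13. Against nc, 5 of 10 were above 0 in LNCaP and 1 of 10 in DU145, with medians of -0.0098 and -0.14. From siControl, MFN2, VDAC1 and MTCH2 stood at -0.27, -0.25 and -0.24 in DU145.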
